A study of Mus musculus with 6 samples.

Results

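*Cyp2f2*, *Hsd17b6*, *Pigr*, *Cdh1*, *Aldh1b1*, *Etnppl*, *Ctsc* and *Cobl* are 8 genes described as more abundant in periportal than in pericentral hepatocytes of the mouse. They were taken by name, as *Cyp2f2*, the classical marker of the periportal zone, and 7 further markers of that zone, out of 25184 genes in the count table. All 8 were in the table, and all 8 were among the 15105 genes that passed the filter on low counts (a mean normalized count above 5 over all libraries) and were tested. RNA-seq was done on primary hepatocytes of 3 *Sucnr1* fl/fl mice (replicates 1, 2 and 3) and 3 Hep-*Sucnr1* KO mice (replicates 3, 4 and 5), 1 library a mouse. *Sucnr1* encodes SUCNR1, the cell-surface receptor for succinate. Both genotypes are homozygous for the floxed *Sucnr1* allele. Hep-*Sucnr1* KO mice, which are *Alb-Cre*+/−, also carry Cre under the albumin promoter, whose activity marks hepatocytes, on a C57BL6J background, whereas the controls have no Cre, so that effects of Cre and of the deletion cannot be told apart. The mice ate chow, and their age is not given in the sources used here. Cells were isolated from the left lateral lobe by enzymatic perfusion and a density gradient and were kept overnight on collagen before lysis. The comparison asks whether the mRNA of periportal marker genes differs in hepatocytes of mice in which *Sucnr1* was targeted in these cells.

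Blood enters the liver lobule at the portal triad and leaves at the central vein, and hepatocytes along this path divide the work of the organ. Periportal hepatocytes are known for urea synthesis, gluconeogenesis and amino acid breakdown, and pericentral hepatocytes for glutamine synthesis and drug oxidation, under Wnt signals from the endothelium of the central vein. Hepatocytes lose their position in the lobule when they are isolated, so a marker gene in a culture reports the mixture of cells taken and what they still express. In bulk libraries fewer cells of a type and less RNA per cell cannot be told apart.

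Library totals lay between 30504248 and 38770694 counts. Replicate 1 of *Sucnr1* fl/fl and replicate 3 of Hep-*Sucnr1* KO were extracted on day 1, and the other 4 libraries, 2 of each genotype, on day 2. *Sucnr1* itself had 258, 118 and 103 counts in the *Sucnr1* fl/fl libraries and 84, 28 and 5 in the Hep-*Sucnr1* KO libraries, or 6.71, 3.55 and 3.40 CPM and 2.66, 0.827 and 0.152 CPM (counts of a gene scaled to the same library size with edgeR's TMM factors). All 3 Hep-*Sucnr1* KO libraries were below all 3 *Sucnr1* fl/fl libraries, but replicate 3 of Hep-*Sucnr1* KO kept 84 counts beside 103 in the lowest control, and the log2 fold change of −2.23 had an edgeR FDR of 0.998. Defining hepatocyte genes were abundant in all 6 libraries, with *Alb*, the gene of albumin, between 37120 and 68930 CPM. Hep-*Sucnr1* KO replicate 4 stood apart on zonation genes: it had the highest summed level of 16 pericentral landmark genes of the 6 libraries, 7024 CPM, beside 1832 CPM in Hep-*Sucnr1* KO replicate 5, the lowest, and 2721 to 4133 CPM in *Sucnr1* fl/fl. Fold changes of the members and the list counts that this library moved are also given without it. By the names of their library indexes, *Sucnr1* fl/fl replicates 1 and 2 formed one series and the other 4 libraries another, so that this series is partly confounded with genotype.

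The genomic bases just before the transcription start are shown for 4 members. *Cyp2f2* names the group, and *Pigr* was the member nearest to it by the distance over the libraries given below. *Hsd17b6* had the largest genotype difference, and the pattern of *Cobl* was opposite to most. The RefSeq promoter table (GRCm38.p6) held 7 of the 8 members, and *Cdh1* had no entry. Each line gives the 250 bases up to the RefSeq start, 5′ to 3′ on the strand of the gene, with motif matches in capitals. For *Cyp2f2*, whose RefSeq start lies 46 bases inside the gene as GENCODE annotates it, only the 204 bases before the GENCODE start are shown.
*Cyp2f2*, chr7:27119705-27119908, strand +: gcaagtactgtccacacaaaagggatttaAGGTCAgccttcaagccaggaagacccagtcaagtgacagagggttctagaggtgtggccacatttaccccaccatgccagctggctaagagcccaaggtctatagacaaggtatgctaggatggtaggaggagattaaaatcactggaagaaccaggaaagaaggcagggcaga
*Hsd17b6*, chr10:128007612-128007861, strand −: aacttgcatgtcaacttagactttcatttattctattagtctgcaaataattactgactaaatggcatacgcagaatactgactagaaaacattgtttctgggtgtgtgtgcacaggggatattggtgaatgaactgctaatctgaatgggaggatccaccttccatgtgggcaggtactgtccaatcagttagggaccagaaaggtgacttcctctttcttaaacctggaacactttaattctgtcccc
*Pigr*, chr1:130826434-130826683, strand +: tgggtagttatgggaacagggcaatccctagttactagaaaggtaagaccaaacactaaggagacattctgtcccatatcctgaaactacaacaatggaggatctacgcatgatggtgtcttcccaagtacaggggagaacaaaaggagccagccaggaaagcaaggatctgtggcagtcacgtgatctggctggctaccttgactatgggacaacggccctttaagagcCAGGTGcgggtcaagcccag
*Cobl*, chr11:12464961-12465210, strand −: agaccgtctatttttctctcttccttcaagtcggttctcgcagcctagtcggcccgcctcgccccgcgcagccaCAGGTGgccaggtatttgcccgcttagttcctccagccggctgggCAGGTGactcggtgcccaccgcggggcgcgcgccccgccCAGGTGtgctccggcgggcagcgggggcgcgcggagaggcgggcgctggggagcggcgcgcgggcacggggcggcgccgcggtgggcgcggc
Searched on both strands were the TCF/LEF sites CTTTGAT and CTTTGAA, the E-box CAGGTG, the nuclear receptor site AGGTCA, the HNF4 site CAAAGTCCA, the C/EBP site TTGCGCAA and the TATA box TATAAA. *Cyp2f2* held 1 AGGTCA, which began 175 bases before the GENCODE start (221 before the RefSeq start) and is also found in 14.0% of 32851 promoters of this length. *Pigr* held 1 CAGGTG, 20 bases before the start, and *Cobl* held 3, at 176, 131 and 92 bases before it. The letters CAGGTG occur in 17.2% of promoters. *Hsd17b6* held none of these motifs, nor did *Aldh1b1*, *Etnppl* and *Ctsc*. The *Cobl* promoter had a GC content of 75.2% and that of *Hsd17b6* 41.2%, beside a median of 52.4% over all promoters.

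Per length of exon, the 8 genes spanned 2 orders of magnitude. *Cyp2f2* stood highest at 642 ± 139.9 CPM per kb (SD over 6 libraries), followed by *Pigr* at 246 ± 36.9 CPM per kb and *Cdh1* at 101 ± 32.0 CPM per kb. *Hsd17b6* (42.0 ± 18.7 CPM per kb), *Ctsc* (22.6 ± 6.67), *Etnppl* (18.1 ± 8.62) and *Aldh1b1* (12.6 ± 3.83) followed, and *Cobl* was lowest at 4.77 ± 1.15 CPM per kb. The lowest *Cyp2f2* library, at 428 CPM per kb, was above the highest *Pigr* library (301 CPM per kb), and the lowest *Pigr* library (197 CPM per kb) was above the highest *Cdh1* library (142 CPM per kb). At the other end the highest *Cobl* library (6.502 CPM per kb) was below every library of the other members. *Hsd17b6*, *Ctsc*, *Etnppl* and *Aldh1b1* had overlapping ranges from neighbour to neighbour, and so did *Cdh1* and *Hsd17b6*, and their order is not resolved. With coding length in place of exon length, 6 of the 8 members kept their place.

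**Figure D1:**
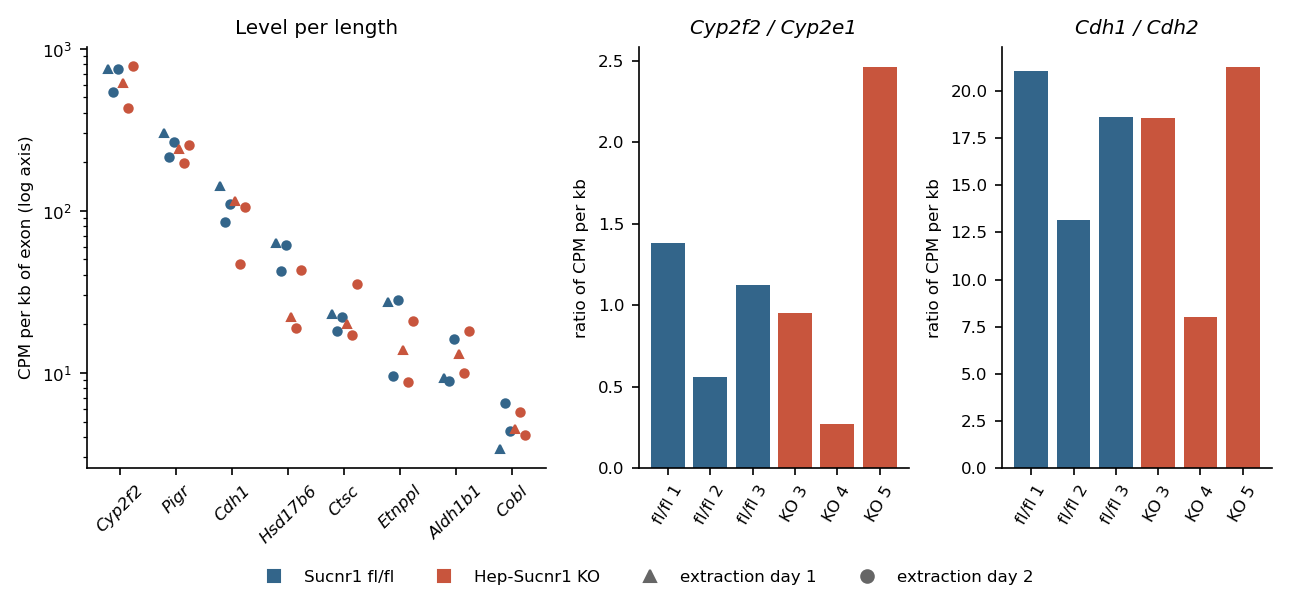
Left, level of each member in CPM per kb of exon (log axis), 1 point a library, coloured by genotype and shaped by extraction day. Middle and right, ratio of CPM per kb of *Cyp2f2* to *Cyp2e1* and of *Cdh1* to *Cdh2* in each library, as bars from 0. *Cyp2f2* is highest and *Cobl* lowest in every library, and both ratios are lowest in Hep-*Sucnr1* KO replicate 4 (0.269 and 8.002).

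None of the 8 genes passed the test between genotypes. The FDR from edgeR's quasi-likelihood test, with extraction day in the model and Benjamini-Hochberg adjustment over all genes tested, was 0.998 for each member, and 0% of the 15105 genes had an FDR below 0.05 (DESeq2: 13 genes, 0.0861%, and 0 of the members). At an unadjusted p below 0.05 stood 1 of the 8 members, *Hsd17b6*, beside 3.73% of all genes (1.81% counting only those below 0, as it was). The log2 fold change, taken as Hep-*Sucnr1* KO over *Sucnr1* fl/fl, was below 0 for 5 members and above 0 for 3, beside 49.5% of all genes below 0. Its median was −0.16 over the members and 0.003 over all genes. The genotypes overlapped for all 8 members, whereas 10.6% of all genes did not overlap. Since 3 mice against 3 cannot give an exact permutation p below 0.1, that test could not reach 0.05 for any single gene.

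**Figure D2:**
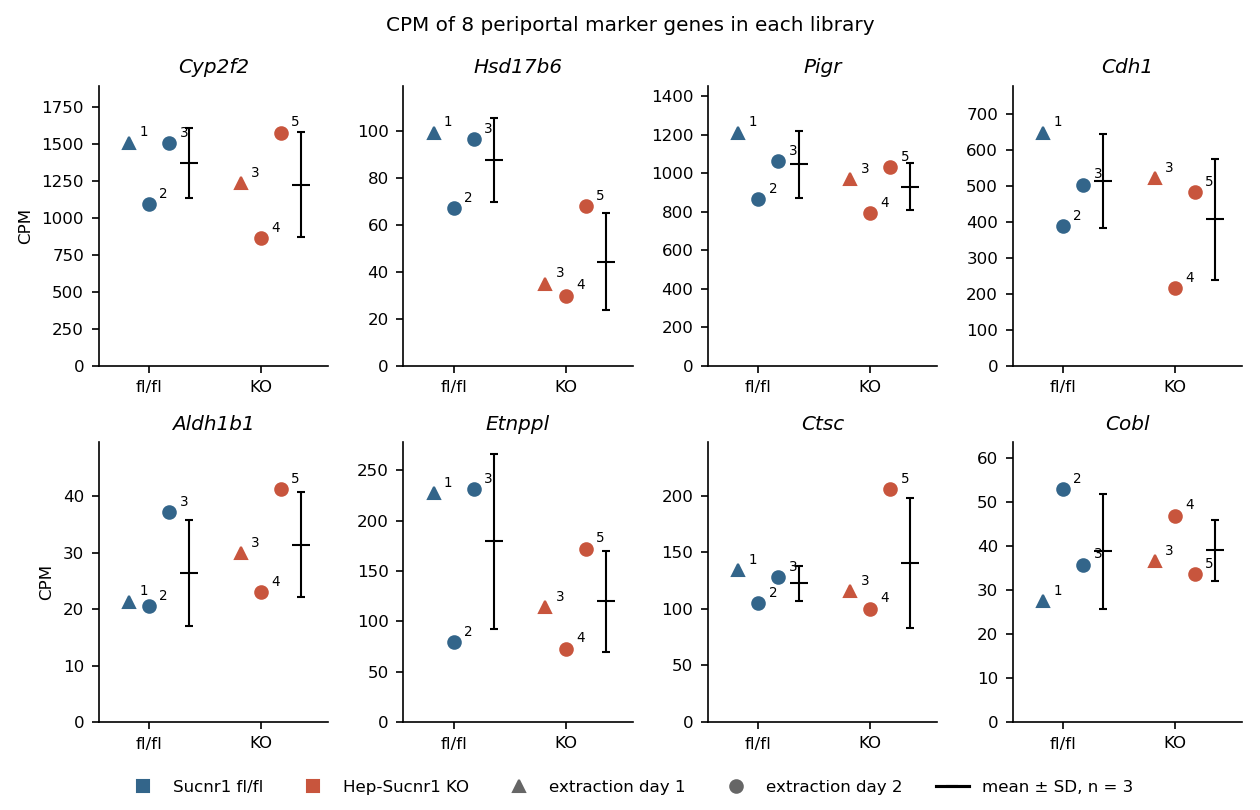
CPM (y axes from 0) of each member in each library, controls on the left and Hep-*Sucnr1* KO on the right of each panel. Numbers are replicate numbers, triangles extraction day 1 and circles day 2, and bars are means ± SD (n = 3). *Hsd17b6* has the largest difference of the means on the log2 scale (87.8 and 44.4 CPM), while Hep-*Sucnr1* KO replicate 4 is the lowest point of 6 of the 8 panels.

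*Cyp2f2* (ENSMUSG00000052974, chromosome 7, 27119909 to 27133660, + strand, GRCm38) encodes a cytochrome P450 that oxidizes small aromatic compounds such as naphthalene. It was at 1512, 1096 and 1510 CPM in the *Sucnr1* fl/fl mice and at 1238, 866 and 1579 CPM in the Hep-*Sucnr1* KO mice (here and throughout in the order of replicates 1 to 3 and 3 to 5). The lowest and the highest of the 6 libraries were thus both Hep-*Sucnr1* KO, and the groups overlapped throughout. Means were 1373 ± 240 and 1228 ± 357 CPM (SD, n = 3 each, p = 0.7 in an exact permutation test). The log2 fold change was −0.16 with a standard error of 0.26 and a 95% interval from −0.76 to 0.45, so a fall by more than 0.76 on the log2 scale lay outside the interval. It was −0.46 without Hep-*Sucnr1* KO replicate 5 and 0.04, on the other side of 0, without replicate 4. Within day 1 the log2 ratio of CPM was −0.29, and within day 2 it was −0.09. The *Cyp2f2* locus is part of a cluster of Cyp2 genes on chromosome 7. Of 12 cluster genes listed, 9 were in the table and 6 were tested, 3 with a fold change above and 3 below 0, none with an FDR below 0.05 (2 below 0 without replicate 4). *Cyp2a4*, whose product hydroxylates steroids, had the highest log2 fold change (0.51) and *Cyp2b10*, a classical target of the xenobiotic receptor CAR, the lowest (−0.78, from levels of 0.620 to 5.10 CPM). Members of the Cyp2a and Cyp2b families resemble one another closely, and the treatment of reads with several possible genes of origin is not given in the sources used here, so these values are uncertain.

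*Cyp2e1*, the cytochrome P450 of ethanol oxidation, is a pericentral counterpart of *Cyp2f2*. It was at 1169, 2078 and 1429 CPM in *Sucnr1* fl/fl and at 1383, 3430 and 684 CPM in Hep-*Sucnr1* KO, with the highest value in the library where *Cyp2f2* was lowest and the lowest where *Cyp2f2* was highest. Per kb of exon, the ratio of *Cyp2f2* to *Cyp2e1* was 1.38, 0.562 and 1.13 in *Sucnr1* fl/fl and 0.954, 0.269 and 2.46 in Hep-*Sucnr1* KO. The Hep-*Sucnr1* KO libraries held both ends of this range and the groups overlapped. *Glul*, the gene of glutamine synthetase and the sharpest pericentral marker, was at 539, 646 and 439 CPM and at 398, 1002 and 423 CPM, again highest in replicate 4.

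*Hsd17b6* (ENSMUSG00000025396, chromosome 10, 127990936 to 128007611, − strand) encodes a short-chain dehydrogenase that oxidizes androgens such as androstanediol and also acts on retinol. Its level was 99.5, 67.2 and 96.7 CPM in *Sucnr1* fl/fl cells and 35.0, 29.9 and 68.2 CPM in Hep-*Sucnr1* KO cells. Replicate 5 of Hep-*Sucnr1* KO was just above replicate 2 of *Sucnr1* fl/fl, and apart from that pair the genotypes were separate. The means were 87.8 ± 17.9 and 44.4 ± 20.8 CPM (SD, n = 3 each, p = 0.2 in an exact permutation test). Its log2 fold change of −0.99 (standard error 0.33, 95% interval −1.79 to −0.20) was the largest of the 8, with an unadjusted p of 0.0212 in edgeR's quasi-likelihood test and an FDR of 0.998. Over the alternatives the adjusted p of edgeR and DESeq2 ranged from 0.29, with DESeq2, to 1. DESeq2 left some genes without an adjusted p, so its adjustment covered fewer genes. The log2 fold change was −1.48 without Hep-*Sucnr1* KO replicate 5 and −0.74 without *Sucnr1* fl/fl replicate 1, and below 0 with every library left out. The log2 ratio was −1.51 within day 1 and −0.74 within day 2, and the interaction of genotype and day had an unadjusted p of 0.307 (edgeR FDR 1.00). Overlap of the genotypes turned on the scaling: with TMM factors from all genes, DESeq2 size factors or library size alone, all chosen after seeing the data, the lowest *Sucnr1* fl/fl value was above the highest Hep-*Sucnr1* KO value (68.1 and 67.6, 67.6 and 67.2, 73.3 and 65.3 CPM), as against 67.2 and 68.2 CPM here. Among all genes 4.04% had Hep-*Sucnr1* KO libraries that all lay below the *Sucnr1* fl/fl libraries.

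The genes nearest in family and function to *Hsd17b6* showed no difference past the test. Of 7 retinol dehydrogenase genes of its family, 5 were tested, 2 with a fold change above and 3 below 0. The extremes were *Rdh16*, at 0.08 on the log2 scale, and *Rdh9*, at −0.43 from levels of only 0.981 to 2.45 CPM. *Rdh7*, a close relative (named after its values were seen), was the most abundant of them, at 526, 507 and 536 CPM in *Sucnr1* fl/fl and 460, 521 and 447 CPM in Hep-*Sucnr1* KO, with a log2 fold change of −0.14 (standard error 0.13). Among 12 enzymes of androgen and steroid metabolism, 5 had a fold change above and 7 below 0, with a median of −0.03. The highest was *Cyp7b1*, an oxysterol and androgen hydroxylase, at 0.27, and the lowest was *Srd5a2*, a steroid 5α-reductase, at −0.37 with under 1 CPM in every library. The median without Hep-*Sucnr1* KO replicate 4 was −0.21 for the retinol dehydrogenases and −0.06 for the steroid enzymes.

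*Aldh1b1* (ENSMUSG00000035561, chromosome 4, 45799022 to 45804604, + strand) encodes a mitochondrial aldehyde dehydrogenase that oxidizes acetaldehyde and retinal. In *Sucnr1* fl/fl it was at 21.4, 20.6 and 37.3 CPM, and in Hep-*Sucnr1* KO at 30.0, 23.0 and 41.4 CPM. Replicate 3 of *Sucnr1* fl/fl was above 2 of the Hep-*Sucnr1* KO libraries, so the groups overlapped (26.4 ± 9.42 and 31.4 ± 9.27 CPM, SD, n = 3 each, p = 0.5 in an exact permutation test). Its log2 fold change of 0.27 (standard error 0.29, 95% interval −0.42 to 0.95) was the highest of the 8. With 1 library left out it ran from 0.03 to 0.58, and with a term for the index series in the model it turned to −0.23. The other aldehyde dehydrogenases were 10 of 12 above 0, with a median of 0.09, and 0 had an FDR below 0.05. *Aldh1a1*, a retinal dehydrogenase, had the highest value, 0.47, with 340, 344 and 358 CPM in *Sucnr1* fl/fl and 429, 673 and 346 CPM in Hep-*Sucnr1* KO. *Aldh6a1*, of valine breakdown, had the lowest, −0.08. Without Hep-*Sucnr1* KO replicate 4, 7 of the 12 were below 0 and the median was −0.01.

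*Etnppl* (ENSMUSG00000019232, chromosome 3, 130617448 to 130637521, + strand) encodes ethanolamine-phosphate phospho-lyase, which breaks phosphoethanolamine down. It was at 227, 79.3 and 232 CPM in *Sucnr1* fl/fl cells and at 114, 72.9 and 172 CPM in Hep-*Sucnr1* KO cells. The lowest library of each genotype was at nearly the same level, and the highest *Sucnr1* fl/fl library was 2.92 times the lowest, the widest range of any member within that group. The means of 179 ± 86.7 and 120 ± 49.9 CPM (SD, n = 3 each) differed by less than the SD of *Sucnr1* fl/fl (p = 0.3 in an exact permutation test). The log2 difference was −0.56 (standard error 0.46, 95% interval −1.65 to 0.54). It was −1.05 without Hep-*Sucnr1* KO replicate 5 and −0.09 without *Sucnr1* fl/fl replicate 3. *Etnppl* had the highest biological coefficient of variation of the 8, 0.388, at percentile 90.4 of all genes tested. Among tested genes with a mean of at least 10 CPM it was at percentile 99.0. There the other members lay between 76.5, for *Pigr*, and 97.1, for *Hsd17b6*. Around phosphoethanolamine, 6 of 8 genes were above 0, with a median of 0.06 and a range from −0.08 for *Sgpl1*, the lyase that makes phosphoethanolamine from sphingosine phosphate, to 0.17 for *Pemt*, which methylates phosphatidylethanolamine. None had an FDR below 0.05.

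*Ctsc* (ENSMUSG00000030560, chromosome 7, 88278085 to 88310888, + strand) encodes cathepsin C, a lysosomal dipeptidyl peptidase known for activating serine proteases of immune cells. The values were 134, 105 and 128 CPM in *Sucnr1* fl/fl and 115, 100.03 and 206 CPM in Hep-*Sucnr1* KO. The *Sucnr1* fl/fl libraries lay close together, and replicate 5 of Hep-*Sucnr1* KO was far above its group while the other two lay within or below the *Sucnr1* fl/fl range. Means were 122 ± 15.3 and 140.4 ± 57.2 CPM (SD, n = 3 each, p = 0.9 in an exact permutation test). The log2 fold change, 0.19 (standard error 0.28, 95% interval −0.48 to 0.86), turned to −0.22 without that library. It also differed in sign between days, at −0.22 within day 1 and 0.39 within day 2 (interaction, unadjusted p = 0.341 in edgeR). Of the 10 other cathepsin genes tested, 6 were above and 4 below 0, with a median of 0.02, and 0 had an FDR below 0.05. *Ctsk* was highest at 0.29, with under 1 CPM in every library, and *Ctss* lowest at −0.12. Without Hep-*Sucnr1* KO replicate 4, 2 of the 10 were below 0. *Ctss*, which macrophages express, was at 4.73, 4.99 and 20.3 CPM in *Sucnr1* fl/fl and 1.33, 20.2 and 15.8 CPM in Hep-*Sucnr1* KO. Its mean was thus higher in Hep-*Sucnr1* KO (12.4 CPM) than in *Sucnr1* fl/fl, while the fold change with day in the model was below 0, and with 1 library left out that value ran from −0.76 to 0.51. The 10 Kupffer cell markers summed to 52.8 to 163 CPM in *Sucnr1* fl/fl and 36.3 to 130.2 CPM in Hep-*Sucnr1* KO, with the lowest sum in Hep-*Sucnr1* KO replicate 3. With day in the model all 10 had a fold change below 0, with a median of −0.40, although for 4 of them the mean CPM was higher in Hep-*Sucnr1* KO. The direction rested on replicate 3 of Hep-*Sucnr1* KO: without it 1 of 10 was below 0 and the median was 0.17, and without replicate 4 it was 9 of 10, with a median of −0.85. *Marco*, a scavenger receptor of macrophages, was the lowest of them, at −1.18, and *Cd68*, a lysosomal glycoprotein, the highest, at −0.08. *Cd5l* and *Clec4f*, 2 of the 10, are also in the periportal set that the study used. The part of Kupffer cells in the *Ctsc* values was not tested.

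*Pigr* (ENSMUSG00000026417, chromosome 1, 130826684 to 130852249, + strand) encodes the polymeric immunoglobulin receptor, which carries IgA through hepatocytes and bile duct cells into bile. Its CPM were 1211, 866 and 1064 in *Sucnr1* fl/fl and 969, 793 and 1030 in Hep-*Sucnr1* KO. All 6 libraries lay within a factor of 1.53, the narrowest range of the 8 members. Means were 1047 ± 173 and 931 ± 123 CPM (SD, n = 3 each, p = 0.4 in an exact permutation test). The log2 fold change of −0.16 had the smallest standard error of the group, 0.17, and its 95% interval ran from −0.57 to 0.24. With 1 library left out it stayed between −0.30 and −0.08. Of 6 tested genes of transcytosis, the path by which the receptor crosses the cell, 3 were above and 3 below 0 (1 below 0 without replicate 4). *Rab17*, a small GTPase of that path, was highest at 0.17. *Myo5b*, the motor of recycling vesicles, was lowest at −0.50 (standard error 0.17, unadjusted p = 0.0217 and FDR 0.998 in edgeR), with 33.4, 39.7 and 26.5 CPM in *Sucnr1* fl/fl and 26.9, 21.9 and 22.1 CPM in Hep-*Sucnr1* KO, the groups overlapping. Among 8 genes of the cytokine signals known to induce *Pigr*, 7 were below 0, between *Rela*, a subunit of NF-κB, at −0.21 and *Irf1*, an interferon response factor, at 0.05. None had an FDR below 0.05, and the median was −0.09.

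*Cdh1* (ENSMUSG00000000303, chromosome 8, 106603351 to 106670246, + strand) encodes E-cadherin, the adhesion protein of epithelial junctions, which in the liver marks periportal hepatocytes and bile ducts. It was at 649, 389 and 505 CPM in *Sucnr1* fl/fl cells and at 523, 215 and 484 CPM in Hep-*Sucnr1* KO cells. Replicate 4 was lowest by a wide margin, with 389 CPM in the next, and the remaining 2 Hep-*Sucnr1* KO libraries lay within the *Sucnr1* fl/fl range. The means were 514 ± 130.4 and 407 ± 168 CPM (SD, n = 3 each, p = 0.5 in an exact permutation test). The log2 fold change was −0.34 (standard error 0.29, 95% interval −1.04 to 0.36), −0.73 without replicate 5 and −0.07 without replicate 4 of Hep-*Sucnr1* KO. *Cdh1* also had the largest difference between extraction days of the 8, −0.56 for day 2 against day 1 (standard error 0.30, edgeR FDR 0.807), with nearly equal genotype ratios on both days (−0.31 and −0.36). *Cdh2*, the N-cadherin that hepatocytes of all zones carry beside E-cadherin, was at 54.4, 52.1 and 47.8 CPM in *Sucnr1* fl/fl and 49.6, 47.4 and 40.1 CPM in Hep-*Sucnr1* KO. Per kb the ratio of *Cdh1* to *Cdh2* was 21.03, 13.2 and 18.6 in *Sucnr1* fl/fl and 18.6, 8.002 and 21.3 in Hep-*Sucnr1* KO, and the groups overlapped.

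Of 10 other genes of the adherens junction, 9 were below 0, with a median of −0.15 (−0.13 without Hep-*Sucnr1* KO replicate 4), and 0 had an FDR below 0.05. *Nectin1*, a cell adhesion receptor of the immunoglobulin family, was lowest at −0.38 (standard error 0.12, unadjusted p = 0.0187 and FDR 0.998 in edgeR), with 17.3, 13.6 and 12.0 CPM in *Sucnr1* fl/fl and 12.5, 10.6 and 9.62 CPM in Hep-*Sucnr1* KO. *Nectin2*, of the same family, was highest at 0.11. Among 5 repressors of *Cdh1* transcription, 4 were below 0, with *Zeb1* lowest at −0.33 and *Snai1* highest at 0.47, the latter with under 1 CPM in every library. Among bile duct markers, the keratins were low whereas *Sox9*, a transcription factor of duct cells, was at 83.2 to 122 CPM and *Spp1*, the gene of osteopontin, at 266 to 526 CPM. *Krt7*, a keratin that defines duct cells, was at 0.330 CPM or less and at 0 in replicate 4, below the filter on low counts, and *Krt19* was between 0.118 and 0.890 CPM. The summed level of the 8 duct markers was 358 to 519 CPM in *Sucnr1* fl/fl and 433 to 656 CPM in Hep-*Sucnr1* KO, most of it from *Spp1* and *Sox9*. *Cftr*, a chloride channel of duct cells, was at −1.54 (standard error 1.03), with under 1 CPM in every library. *Krt19*, *Cdh1* and *Pigr* all had their lowest level in replicate 4, and the part of duct cells in that was not tested.

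*Cobl* (ENSMUSG00000020173, chromosome 11, 12236608 to 12464960, − strand) encodes cordon-bleu, which nucleates actin filaments. It was at 27.5, 52.9 and 35.7 CPM in *Sucnr1* fl/fl and at 36.5, 46.8 and 33.6 CPM in Hep-*Sucnr1* KO. Replicate 2 of *Sucnr1* fl/fl and replicate 4 of Hep-*Sucnr1* KO were the highest, which is the reverse of *Cyp2f2*, *Pigr*, *Cdh1*, *Etnppl* and *Ctsc*. Means were 38.71 ± 12.98 and 38.95 ± 6.99 CPM (SD, n = 3 each, p = 1.0 in an exact permutation test). The log2 fold change was 0.04 (standard error 0.21, 95% interval −0.47 to 0.55), with −0.15 without Hep-*Sucnr1* KO replicate 3 and 0.27 without *Sucnr1* fl/fl replicate 2, and its sign differed between day 1 (0.41) and day 2 (−0.14). The 8 tested genes around actin nucleation were all below 0, with a median of −0.14 with and −0.11 without replicate 4. They lay between *Spire1*, another nucleator, at −0.40 and *Actr2*, a subunit of the Arp2/3 complex, at −0.04, and none had an FDR below 0.05. Genes on the opposite strand overlap *Cobl*, *Cyp2f2* and *Ctsc*, and the counting used strand.

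**Figure D3:**
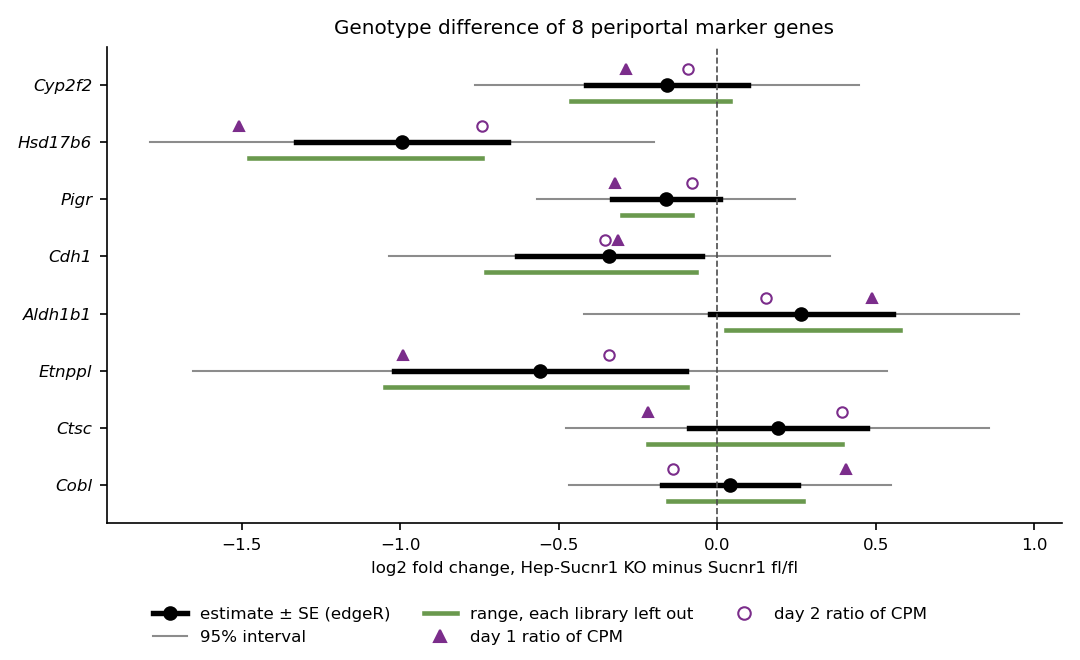
Log2 fold change (Hep-*Sucnr1* KO over *Sucnr1* fl/fl) of each member: black points and bars are the edgeR estimate ± standard error, thin grey lines its 95% interval, green bars the range with each library left out, and purple marks the log2 ratio of mean CPM within each extraction day. The interval of *Hsd17b6* alone lies to the left of 0 (−1.79 to −0.20), and the leave-one-out ranges of *Cyp2f2*, *Ctsc* and *Cobl* cross 0.

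For 7 of the 8 genes, all but *Hsd17b6*, the genotype means differed by less than the larger of their SDs. In Hep-*Sucnr1* KO replicate 4, 6 of the 8 members had their lowest level of the 6 libraries, beside 18.4% of all genes. The exceptions were *Aldh1b1*, lowest in *Sucnr1* fl/fl replicate 2, and *Cobl*, lowest in *Sucnr1* fl/fl replicate 1. The median deviation of the members from their mean over the 6 libraries, in log2 CPM, was 0.28, −0.20 and 0.23 in the *Sucnr1* fl/fl libraries and −0.05, −0.45 and 0.25 in the Hep-*Sucnr1* KO libraries. For 5 members *Sucnr1* fl/fl replicate 2 and Hep-*Sucnr1* KO replicate 4 were the lowest pair (11.3% of all genes), and for 1, *Cobl*, they were the highest pair (9.05%). Both libraries are from day 2, as are replicate 3 of *Sucnr1* fl/fl and replicate 5 of Hep-*Sucnr1* KO, which were among the higher ones. The day term was larger in size than the genotype term for 3 members, *Pigr*, *Cdh1* and *Cobl*, and 0% of all genes had an FDR below 0.05 for day. Genotype ratios had the same sign on both days for 6 of the 8, all but *Ctsc* and *Cobl*.

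**Figure D4:**
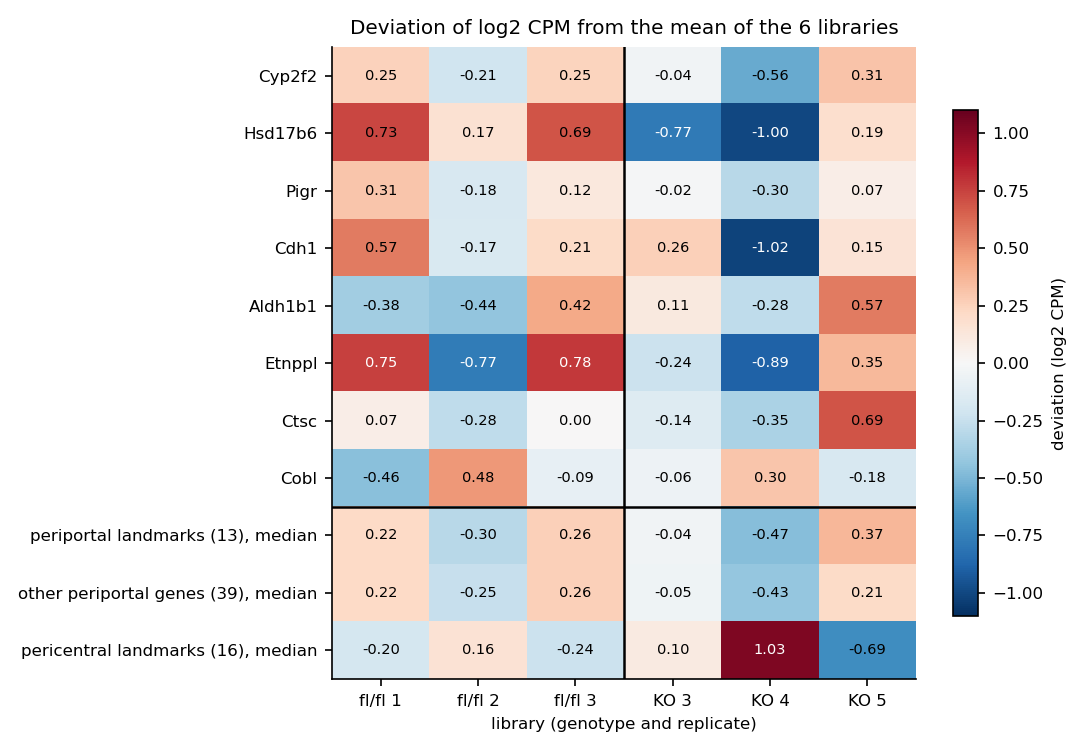
Log2 CPM of each member minus its 6-library mean, with the medians of 3 gene lists below the line, of which the periportal lists share genes. Columns are libraries, controls left of the vertical line and Hep-*Sucnr1* KO right of it, and red is above and blue below the mean. Hep-*Sucnr1* KO replicate 4 is at −0.56 for *Cyp2f2* and −1.02 for *Cdh1*, at −0.47 for the periportal landmarks and at 1.03 for the pericentral landmarks.

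Other zonated genes also varied over these libraries. The median deviation of 13 periportal landmark genes, chiefly enzymes of the urea cycle, gluconeogenesis and amino acid breakdown, was 0.22, −0.30 and 0.26 in *Sucnr1* fl/fl and −0.04, −0.47 and 0.37 in Hep-*Sucnr1* KO. In 16 pericentral landmark genes it was −0.20, 0.16 and −0.24 in *Sucnr1* fl/fl and 0.10, 1.03 and −0.69 in Hep-*Sucnr1* KO, of opposite sign to the periportal landmarks in every library. Of the periportal landmarks, 12 of 13 had a fold change below 0, with a median of −0.08, from *Mfsd2a*, a lysolipid transporter, at −0.41 to *Arg1*, the arginase of the urea cycle, at 0.03. Of the pericentral landmarks, 13 of 16 were above 0, with a median of 0.33, from *Znrf3*, a ubiquitin ligase that restrains Wnt receptors, at −0.15 to *Slc1a2*, a glutamate transporter, at 1.56. The *Slc1a2* value rested on Hep-*Sucnr1* KO replicate 4, at 37.7 CPM beside 3.75 to 7.95 CPM in the others, and was 0.28 without it. Leaving out Hep-*Sucnr1* KO replicate 4 changed the landmark counts to 4 of 13 periportal below 0 (median 0.06) and 13 of 16 pericentral below 0 (median −0.38). For the 8 members the count below 0 was 5 with and without that library, and their median was −0.06 without it. Leaving out *Sucnr1* fl/fl replicate 2 instead gave medians further from 0. They were −0.23 for the periportal landmarks, 0.39 for the pericentral landmarks and −0.28 for the members. Hep-*Sucnr1* KO replicate 5 lay at the other end of the pericentral landmarks (−0.69). Without replicate 5, 6 members were below 0 and their median was −0.38. The landmark counts without replicate 5 are not given here. None of these lists had a gene with an FDR below 0.05.

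The periportal set that the study used holds *Cyp2f2*, *Hsd17b6*, *Cdh1*, *Ctsc* and *Cobl* and 40 other genes in the count table, of which 39 were tested. The periportal landmarks, all but *Hal*, *Cps1*, *Arg1* and *Hsd17b13*, are also in that set, so the lists are not independent. A further symbol of that set, Adh1b1, matched no gene of the table, and whether *Aldh1b1* is meant was not resolved. Among the 39, 31 were below 0 and 8 above, with a median of −0.13, and without Hep-*Sucnr1* KO replicate 4 these were 20 below 0 and a median of −0.01. Without Hep-*Sucnr1* KO replicate 3 they were 21 below 0 and a median of −0.04. Leaving out *Sucnr1* fl/fl replicate 2 instead moved the median further below 0, to −0.28. Values of this set without Hep-*Sucnr1* KO replicate 5 are not given here. *Mmd2* was highest at 0.65. *Clec2h*, a lectin-like membrane protein, was lowest at −1.51 (standard error 0.36, unadjusted p = 0.00399 and FDR 0.998 in edgeR), a larger fold change than that of *Hsd17b6*, with 7.99, 6.05 and 12.4 CPM in *Sucnr1* fl/fl and 3.42, 1.98 and 3.86 CPM in Hep-*Sucnr1* KO. It was 1 of 5 genes of the 39 whose genotypes did not overlap, all lower in Hep-*Sucnr1* KO. Counting either direction, 10.6% of all genes did not overlap, and 4.04% counting the lower direction alone. The remaining 4, named after their values were seen, were *Cyp2u1*, *Gpc1*, *Gsta2* and *Hes1*.

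Each tested gene with a mean of at least 10 CPM was also ranked by its distance from *Cyp2f2* over the 6 libraries. The distance was the root mean square difference of their deviations in log2 CPM, and 7065 genes were ranked. It also grows with the size of the deviations, so a gene that moved with *Cyp2f2* but more widely could rank low. The 5 nearest were *Vopp1* (0.039), *Ndfip2* (0.057), *Amdhd1* (0.058), *Agxt* (0.069) and *Setd7* (0.069). *Amdhd1* encodes an enzyme of histidine breakdown and *Agxt* the peroxisomal alanine-glyoxylate aminotransferase, while *Setd7*, a lysine methyltransferase gene, is in the study's periportal set. *Vopp1*, the nearest, was at 15.2, 10.3 and 15.2 CPM in *Sucnr1* fl/fl and 12.2, 8.27 and 15.1 CPM in Hep-*Sucnr1* KO. *Pigr* ranked 110 at a distance of 0.154, *Ctsc* 533 (0.22) and *Cdh1* 1327 (0.271). *Aldh1b1* ranked 2970 and *Etnppl* 5321, and *Hsd17b6* (6239, at 0.47) and *Cobl* (6758, at 0.589) were far down the list. *Etnppl* nevertheless shared its lowest pair of libraries with *Cyp2f2*. In *Sucnr1* fl/fl replicate 2 and Hep-*Sucnr1* KO replicate 4 it deviated by −0.765 and −0.886, and *Cyp2f2* by −0.215 and −0.555. Among pairs of members, *Cyp2f2* and *Pigr* were closest, and *Etnppl* and *Cobl* farthest apart (0.959). The points share library, depth and scaling, and the ranking carries no test.

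Beside the members stood lists of the acute phase response and of other cell types. Of 10 acute phase genes, which hepatocytes secrete in inflammation, all 10 were above 0, with a median of 0.61 (0.54 without Hep-*Sucnr1* KO replicate 4), 7 at an unadjusted p below 0.05 (3.73% of all genes, either direction) and 0 with an FDR below 0.05. Their summed level was 16000 to 18020 CPM in *Sucnr1* fl/fl and 20830 to 23620 CPM in Hep-*Sucnr1* KO, without overlap, from *Fgb*, a fibrinogen chain, at 0.19 to *Saa3*, a serum amyloid, at 0.82. The part of this difference in the values of the members was not tested. General hepatocyte genes gave 6 of 10 above 0, with a median of 0.01 and *Hnf4a*, a transcription factor of hepatocytes, highest at 0.19. Endothelial markers summed to 25.2 to 48.9 CPM in *Sucnr1* fl/fl and 20.5 to 33.3 CPM in Hep-*Sucnr1* KO, with 5 of 6 below 0, from *Pecam1* at −0.60 to *Clec4g* at 0.29. Their median of −0.24 was −0.54 without Hep-*Sucnr1* KO replicate 4, with 6 of 6 below 0, and 0.29 without replicate 3, with 1 of 6 below 0. Stellate cell markers summed to at most 10.7 CPM, with 2 of 3 tested below 0, from *Reln* at −1.20 to *Lrat* at 0.20, (median −0.45, −0.05 without Hep-*Sucnr1* KO replicate 4 and 0.22 without replicate 3), and *Des* and *Acta2* were at 0.152 CPM or less. Markers of other immune cells summed to at most 15.5 CPM. *Itgam*, an integrin of myeloid cells, was highest at 1.34 (standard error 1.14), from levels of 0.620 CPM or less. *Cd3e*, which defines T cells, was at 0.0911 CPM or less. The part of these cells in the values of the members was not tested.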

How the data were processed

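RNA-seq of cultured primary hepatocytes of 6 mice was used as raw counts. The authors trimmed the reads (Trim Galore 0.6.7), aligned them to GRCm38 (STAR 2.7.10a) and counted read pairs per gene, using strand, with featureCounts, and they deposited these counts without normalization or pooling. Groups, replicate numbers and extraction days follow the labels. Genes with a mean DESeq2-normalized count above 5 were kept (15105 of 25184) and tested with edgeR 4.0.16 (R 4.3.3): TMM factors, quasi-likelihood test, extraction day and genotype as terms, Benjamini-Hochberg adjustment over all genes tested and an FDR threshold of 0.05. Standard errors and 95% intervals were derived from the F statistic and its degrees of freedom. CPM used the same factors, and log2 CPM a prior count of 2. Depth was 30504248 to 38770694 counts, so that at these levels the spread between mice sets the precision. For single genes a two-sided exact permutation test was run (SciPy 1.17.1). Exon lengths and coordinates are those of GENCODE M21 (GRCm38).

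Alternatives were DESeq2 1.42.0, other scalings and filters, other covariates, day 2 alone, a robust fit and each library left out, and 3 scalings of CPM were added after seeing the data. The edgeR test was checked on simulated counts. Named were the 8 members, *Cdh2*, *Glul*, *Cyp2e1*, *Sucnr1*, the 5 genes nearest to *Cyp2f2*, and in each gene list every gene past the FDR threshold or else the gene with the largest fold change in each direction; marker genes at or near 0 are given beside the results they touch. The members and lists were chosen with earlier results of these data known, so list counts are descriptions and no list was tested. Some items of the gene lists are not reported here.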

Additional observations from a re-analysis of the deposited data

How the results depend on the processing

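In 15 alternatives the 8 log2 fold changes gave 120 values, of which 111 kept their direction and their side of the FDR threshold and 9 reversed. DESeq2 gave no adjusted p for *Aldh1b1* and *Cobl*, so their DESeq2 values were judged by direction alone. With day in the model, leaving out either day 1 library leaves the other with no information on genotype, so these 2 alternatives nearly repeat day 2 alone. *Hsd17b6*, *Pigr*, *Cdh1* and *Etnppl* did not reverse in any of the 15, and 0 members had an FDR below 0.05 where one was given. *Cobl* reversed with library size alone (−0.002), in day 2 alone (−0.154), without *Sucnr1* fl/fl replicate 1 (−0.141) or 3 (−0.062) and without Hep-*Sucnr1* KO replicate 3 (−0.154) or 4 (−0.049). *Cyp2f2* reversed without Hep-*Sucnr1* KO replicate 4 (0.039) and *Ctsc* without replicate 5 (−0.218), and with 1 library left out they ran from −0.46 to 0.039 and from −0.218 to 0.394, and *Cobl* from −0.154 to 0.271. *Aldh1b1* reversed with the index series in the model (−0.234). The cause was not tested. DESeq2 gave 13 genes with an adjusted p below 0.05 in place of 0. The number of members with an unadjusted p below 0.05, 1 with all libraries, was 0 in day 2 alone, which has fewer samples, and 0 with the index series, and between 0 and 3 with 1 library left out. In each of the 3 other scalings of CPM 1 member, *Hsd17b6*, did not overlap between genotypes. The 5 genes nearest to *Cyp2f2* were the same with a floor of 1 CPM in place of 10. No paired analysis was possible because the genotypes share only replicate number 3. With 3 mice a genotype, intervals of the members reached from 0.41 to 1.09 on either side of the log2 fold change.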
